A study of Homo sapiens with 132 samples.

Results

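The 52 genes described here encode factors that build ribosomes, and their mRNA levels were followed in 4 gastric cancer cell lines treated with epidermal growth factor or with drugs against its receptor family. The list was given by symbol, and each symbol was matched to its Ensembl identifier in the count files. All 52 identifiers were found among the 65217 of each file. Of the 52 genes, 46 carried enough reads to be tested in every line. The other 6 were at or near 0 throughout.

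Ribosomes are assembled in the nucleolus, where RNA polymerase I copies the ribosomal DNA into one long precursor RNA. Small nucleolar ribonucleoproteins modify this precursor, the small subunit processome folds and cuts it, and separate sets of factors carry the small and the large subunit through the nucleoplasm to the cytoplasm. Growth factor signalling and the transcription factor MYC are known to raise the transcription of many of these genes in proliferating cells.

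The bulk mRNA of MKN1, MKN7, NCI-N87 and Hs746T, which are established gastric cancer lines, was sequenced 4 h and 24 h after treatment. Hs746T was kept in DMEM and the other lines in RPMI, each with 10% FCS, and fresh medium was given 2 h before treatment. All 4 lines were left untreated or received 5 µg/ml trastuzumab, an antibody against ERBB2, 0.5 µM afatinib, an inhibitor of the ERBB kinases, or both. MKN1 and Hs746T cells also received 5 ng/ml EGF, 1 µg/ml cetuximab, an antibody against EGFR, or both. Each of the 44 conditions had 3 biological replicates. Afatinib is compared with untreated cells and not with its solvent, so the solvent is part of every afatinib difference given here.

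Totals ranged from 25832557 to 69434151 counted reads per library, with a median of 50725776, and the 52 genes took between 0.437% and 1.22% of them. Receptor levels differed between the lines. The median ERBB2 level in untreated cells was 12266 CPM (counts of a gene scaled to a fixed library total) in NCI-N87, 3624 in MKN7, 151 in MKN1 and 86.5 in Hs746T. MET, the receptor of hepatocyte growth factor, stood at 4321 CPM in Hs746T against 129 to 330 in the other lines. The epithelial marker CDH1 was at a median of 256 CPM in NCI-N87 and 237 in MKN7 but at 2.21 in MKN1 and 0.789 in Hs746T. EPCAM was likewise at 503 and 590 CPM in NCI-N87 and MKN7 and at 25.7 and 35.6 in MKN1 and Hs746T. The epithelial keratins differed from these 2 in MKN1. KRT8 was at 11436 CPM in MKN1, 10260 in NCI-N87, 3148 in MKN7 and 341 in Hs746T. KRT18 and KRT19 were also higher in MKN1 than in MKN7 and Hs746T. The leukocyte marker CD3E was at or below 0.0608 CPM in every untreated library. These are whole cultures, in which fewer cells of one kind and less RNA per cell cannot be told apart.

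The promoters of 5 of the genes are shown first, because the afatinib differences of these genes bracket those of the whole list. DDX21, MRTO4, RRP9 and NOP56 had some of the most negative values and NOB1 had the least negative one in NCI-N87. Each sequence runs from 250 bases before to 50 bases after an annotated start site in RefSeq (GRCh38.p14), 5′ to 3′ on the strand of the gene, and capitals mark the E-box CACGTG, the site that MYC and related factors bind.
DDX21, chr10:68956397-68956696, plus strand: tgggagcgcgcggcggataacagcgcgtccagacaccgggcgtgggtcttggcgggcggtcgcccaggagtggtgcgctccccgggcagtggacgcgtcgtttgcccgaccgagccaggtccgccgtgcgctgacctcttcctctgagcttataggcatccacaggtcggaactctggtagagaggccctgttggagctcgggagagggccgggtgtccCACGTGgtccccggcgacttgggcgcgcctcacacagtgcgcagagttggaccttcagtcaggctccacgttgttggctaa
MRTO4, chr1:19251555-19251854, plus strand: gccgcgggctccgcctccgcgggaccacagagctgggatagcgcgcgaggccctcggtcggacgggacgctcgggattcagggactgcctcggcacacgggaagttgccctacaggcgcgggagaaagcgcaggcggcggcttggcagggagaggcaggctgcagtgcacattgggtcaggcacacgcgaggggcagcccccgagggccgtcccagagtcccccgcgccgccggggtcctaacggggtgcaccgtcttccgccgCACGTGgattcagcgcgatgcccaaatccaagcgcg
RRP9, chr3:51941855-51942154, minus strand: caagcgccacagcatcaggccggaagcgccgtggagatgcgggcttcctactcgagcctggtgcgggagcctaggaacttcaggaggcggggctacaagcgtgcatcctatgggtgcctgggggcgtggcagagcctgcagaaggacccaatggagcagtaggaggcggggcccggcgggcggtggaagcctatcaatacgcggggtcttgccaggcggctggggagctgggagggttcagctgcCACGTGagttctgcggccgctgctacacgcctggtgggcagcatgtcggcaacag
NOP56, chr20:2652382-2652681, plus strand: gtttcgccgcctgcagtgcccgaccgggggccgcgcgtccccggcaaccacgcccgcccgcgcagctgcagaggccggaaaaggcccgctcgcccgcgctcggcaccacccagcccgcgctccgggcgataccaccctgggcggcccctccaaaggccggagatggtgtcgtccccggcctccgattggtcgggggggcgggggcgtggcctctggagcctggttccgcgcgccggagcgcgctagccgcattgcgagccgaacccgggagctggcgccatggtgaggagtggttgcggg
NOB1, chr16:69754877-69755176, minus strand: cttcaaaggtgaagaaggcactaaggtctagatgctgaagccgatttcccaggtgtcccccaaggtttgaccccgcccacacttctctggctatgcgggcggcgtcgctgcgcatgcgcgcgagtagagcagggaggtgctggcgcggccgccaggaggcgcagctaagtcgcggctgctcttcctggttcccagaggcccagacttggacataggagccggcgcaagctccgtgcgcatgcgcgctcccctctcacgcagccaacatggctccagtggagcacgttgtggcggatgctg

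The E-box began 31 bases before the start site in DDX21 (position -31) and 5 before it in RRP9 (position -5), and at position 15 after it in MRTO4. The windows of NOP56 and NOB1 held none. RefSeq gave windows for 44 of the 52 genes, and 20 of these 44 (45.5%) held CACGTG in at least 1 window, against 8.77% of all 27305 genes with a window. CACGTG reads the same on both strands. The heptamer CCGGAAG, a core of ETS family sites that was searched on both strands, was in 17 of the 44 (38.6%) against 12.2% of all genes, and both motifs were in 7 (15.9%) against 1.52%. The letters of the motifs do not overlap. These shares describe letters in a window and not binding.

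In untreated cells the 46 genes covered a wide range of levels per kilobase of exon. NPM1, which encodes nucleophosmin, the most abundant protein of the granular nucleolus, was the highest in every line, with medians over 6 untreated libraries of 526 CPM per kilobase in NCI-N87, 537 in MKN7, 513 in MKN1 and 487 in Hs746T. NCL, the nucleolin gene, came next in NCI-N87 at 282, in MKN7 at 171 and in MKN1 at 301, while in Hs746T DDX21 at 135 and NCL at 131 overlapped. FBL, the methyltransferase of the box C/D particles, had the third highest median in NCI-N87, MKN7 and MKN1. Its range overlapped that of NCL in MKN7, that of NOLC1, next in order, in NCI-N87 and that of DDX21, next in order, in MKN1, so its place was not separated from these neighbours.

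The lowest tested gene was NOP14, a processome factor, in NCI-N87, MKN7 and MKN1, at 1.16, 1.17 and 1.20 CPM per kilobase. In Hs746T it was DDX52, an RNA helicase, at 1.88. UTP14A, PNO1, NOP16, NIP7 and PPAN were listed at 0 in all libraries of the series, and EMG1 was listed at 0 in 102 of them and never exceeded 3 counts. Genes that every dividing cell uses are not expected at 0 reads, so the 6 are given as listed at 0 and no fold is drawn from them. Counting error alone would limit such a gene to 3 counts, or 0.0432 to 0.116 CPM by depth. Of the tested genes, IMP3 shares 59.3% of its exon bases with another gene, LTV1 34.8%, TBL3 29.9% and HEATR1 23.2%, and NPM1 has 45 named pseudogenes, so that reads of these genes may have been split or joined by counting.

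Afatinib lowered most of the list in 3 of the 4 lines. Differences are given as log2 fold changes against untreated cells of the same time, and a gene is called lower or higher when edgeR's quasi-likelihood test gave an adjusted p below 0.05 over all genes of the line. In NCI-N87, 35 of the 46 genes were lower at 4 h, where 9.1% of all 19078 tested genes were lower, and 45 were lower at 24 h against 31.0% of all genes. In MKN7, 41 were lower at 4 h against 12.1% of all 18483 genes, and all 46 were lower at 24 h against 25.0%. In MKN1, 4 were lower at 4 h against 2.41% of all 19815 genes, and 41 at 24 h against 13.3%. No gene of the list was higher in any of these 6 comparisons.

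The median fall was largest in NCI-N87 and smallest in MKN1. The median log2 fold change over the 46 genes went from -0.52 at 4 h to -1.35 at 24 h in NCI-N87, from -0.47 to -0.75 in MKN7 and from -0.17 to -0.47 in MKN1. With a further limit of log2 fold change below -1, 2 genes passed at 4 h and 37 at 24 h in NCI-N87, against 1.22% and 11.5% of all genes. In MKN7, 2 passed at 4 h and 5 at 24 h, against 1.59% and 3.25%. Without replicate 2 the 5 in MKN7 became 8, and without replicate 2 the 35 lower genes of NCI-N87 at 4 h became 22. In MKN1 the 41 at 24 h became 24 without replicate 3, and the 4 at 4 h became 0, 1 and 0 without replicates 1, 2 and 3 but 19 with the replicate number as a block.

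CPM values are shares of a library, and the scaling between libraries set part of these sizes. With library size alone in place of the trimmed mean of M-values (TMM), the median of all genes shifted by 0.26 in NCI-N87 at 24 h, and the median of the 46 genes became -1.09. The shift was 0.11 in MKN7 at 24 h, where the median of the 46 became -0.63. Of 12 called changes checked, the largest of their comparisons, none changed direction under that scaling and 1 no longer passed the threshold.

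**Figure D1:**
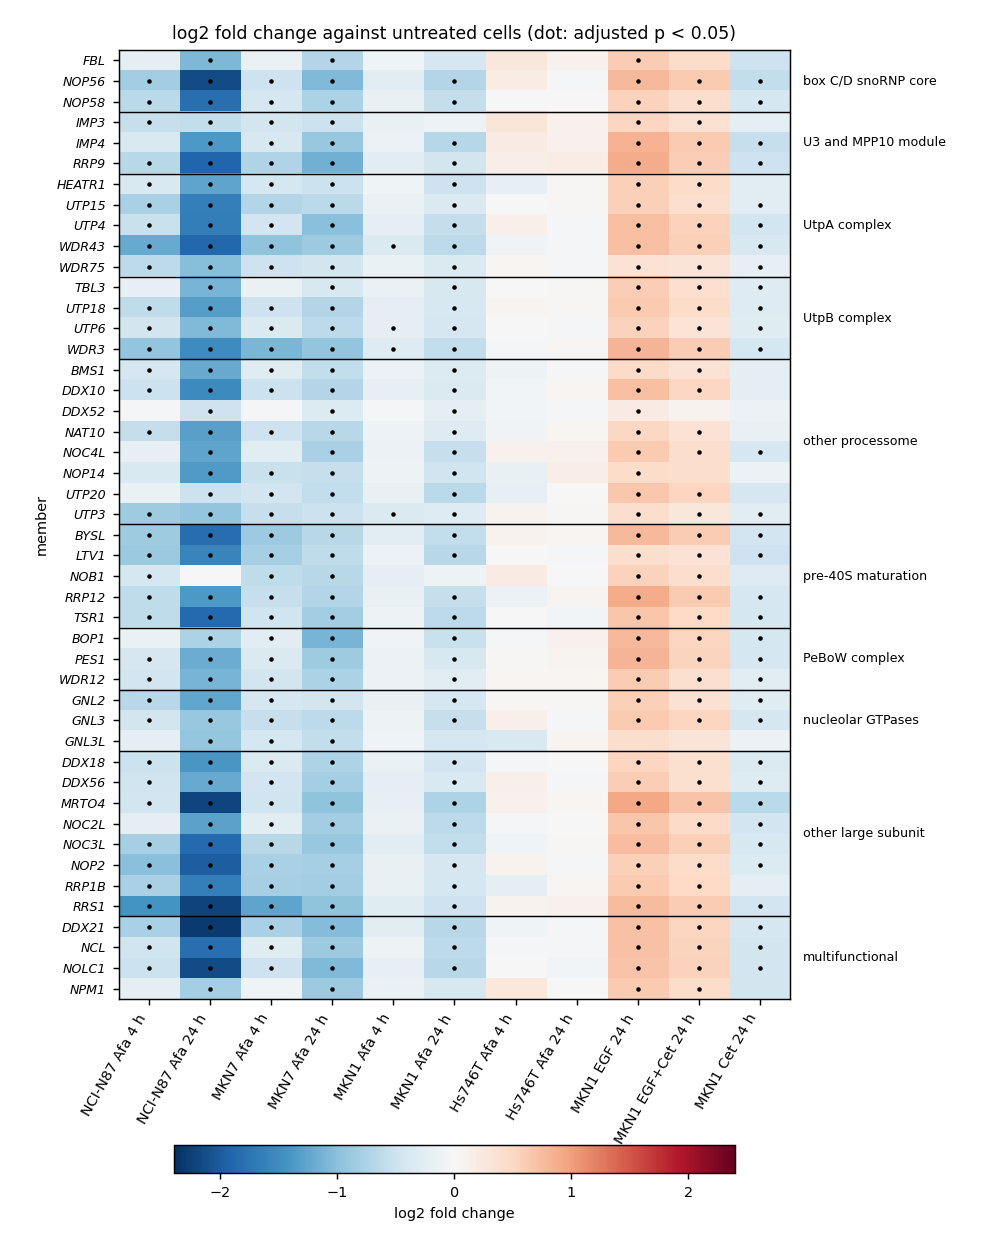
Log2 fold change against untreated cells of the same time for each of the 46 tested genes (vertical axis, grouped by role) in 11 comparisons (horizontal axis). Colour gives the log2 fold change and a dot an adjusted p below 0.05. The NCI-N87 afatinib column at 24 h is the darkest, with NOB1 pale, and both Hs746T columns carry no dot.

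In NCI-N87 at 24 h the 3 largest falls were those of DDX21, RRS1 and MRTO4. DDX21 (ENSG00000165732, chr10:68956128-68985073) encodes a nucleolar RNA helicase that acts in polymerase I transcription and rRNA processing. At 24 h its levels were 477, 499 and 612 CPM in the 3 untreated libraries and 94.9, 107 and 119 CPM with afatinib. At 4 h they were 607, 573 and 561 CPM untreated and 342, 318 and 359 CPM with afatinib. The treated libraries lay below every untreated one at both times. The log2 fold change was -0.77 (SE 0.10, adjusted p = 8.65e-06) at 4 h and -2.31 (SE 0.105, adjusted p = 1.23e-13) at 24 h, and the difference between these was -1.53 (SE 0.14, adjusted p = 4.34e-08).

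RRS1 (ENSG00000179041, on chromosome 8) encodes a factor that helps to bring the smallest rRNA into the large subunit. Its levels at 24 h were 30.5, 32.1 and 35.6 CPM untreated and 5.49, 6.68 and 8.92 CPM with afatinib. RRS1 was also the gene with the largest fall at 4 h in this line, from 28.6, 29.4 and 35.2 CPM to 10.7, 12.7 and 11.1 CPM. The groups did not overlap at either time. The log2 fold change was -1.43 (SE 0.18, adjusted p = 7.16e-06) at 4 h and -2.22 (SE 0.19, adjusted p = 1.59e-09) at 24 h, so that a large part of its fall was present at the early time. WDR43, a UtpA subunit of the processome, was the other gene past the limit at 4 h, with 204, 195 and 205 CPM untreated and 84.0, 85.7 and 90.1 CPM with afatinib.

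MRTO4 (ENSG00000053372, chr1:19251539-19260128), which encodes an assembly factor that holds the place of the ribosomal stalk on the immature large subunit, showed a later fall. At 4 h its levels were 73.2, 73.0 and 90.7 CPM untreated and 54.7, 54.3 and 62.8 CPM with afatinib, and at 24 h they were 73.8, 68.7 and 89.2 and 15.8, 14.6 and 19.7 CPM. The groups were apart at both times but far wider apart at 24 h. The log2 fold change was -0.46 (SE 0.16, adjusted p = 0.0443) at 4 h and -2.21 (SE 0.17, adjusted p = 2.27e-10) at 24 h, and the difference between the times was -1.75 (SE 0.23, adjusted p = 4.03e-06).

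NOB1 (ENSG00000141101, chr16:69741867-69754940), the endonuclease that makes the last cut in the small subunit rRNA, was the only gene of the 46 not lower at 24 h in NCI-N87. It shares 20.2% of its exon bases with another gene. At 4 h its levels were 73.0, 68.5 and 68.8 CPM untreated and 55.4, 49.0 and 53.1 CPM with afatinib, without overlap. At 24 h they were 73.8, 61.9 and 71.0 CPM and 75.0, 65.3 and 68.8 CPM, and the groups overlapped. The log2 fold change was -0.42 (SE 0.12, adjusted p = 0.0198) at 4 h and 0.02 (SE 0.12, adjusted p = 0.914) at 24 h, and the difference between the times did not pass the threshold, 0.43 (SE 0.17, adjusted p = 0.0553). It passed with the replicate number as a block, at 0.44 (SE 0.11, adjusted p = 0.00283), and with DESeq2, at 0.46 (SE 0.19, adjusted p = 0.0383). In MKN7 the same gene was lower at both times, with log2 fold changes of -0.61 and -0.67.

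The 3 largest falls in MKN7 at 24 h were those of RRP9, BOP1 and NOP56. RRP9 (ENSG00000114767, chr3:51933430-51941941) encodes a protein specific to the U3 particle, which guides the first cuts of the precursor. Its levels at 24 h were 88.5, 77.9 and 108 CPM untreated and 41.6, 36.1 and 45.6 CPM with afatinib, a log2 fold change of -1.15 (SE 0.14, adjusted p = 7.03e-07). At 4 h it had moved from 129, 108 and 128 CPM to 82.8, 60.2 and 79.2 CPM. No treated library reached an untreated one at either time.

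BOP1 (ENSG00000261236, on chromosome 8), a subunit of the PeBoW complex of the large subunit, fell late in MKN7. At 4 h its levels were 324, 301 and 325 CPM untreated and 291, 238 and 255 CPM with afatinib, and at 24 h they were 255, 235 and 292 and 119.9, 114 and 127 CPM. The groups were apart at both times, narrowly at 4 h. The log2 fold change was -0.28 (SE 0.090, adjusted p = 0.0303) at 4 h and -1.12 (SE 0.091, adjusted p = 7.06e-09) at 24 h, with a difference of -0.84 (SE 0.13, adjusted p = 1.05e-04).

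NOP56 (ENSG00000101361, chr20:2652145-2658393), a core protein of the box C/D particles whose introns hold small nucleolar RNA genes, had levels at 24 h of 531, 477 and 632 CPM untreated and 264, 240.2 and 283 CPM with afatinib. This was a log2 fold change of -1.06 (SE 0.12, adjusted p = 2.95e-07), and the groups did not overlap. In NCI-N87 NOP56 went from 338, 283 and 310.1 CPM to 70.0, 61.5 and 78.4 CPM, a log2 fold change of -2.15.

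**Figure D2:**
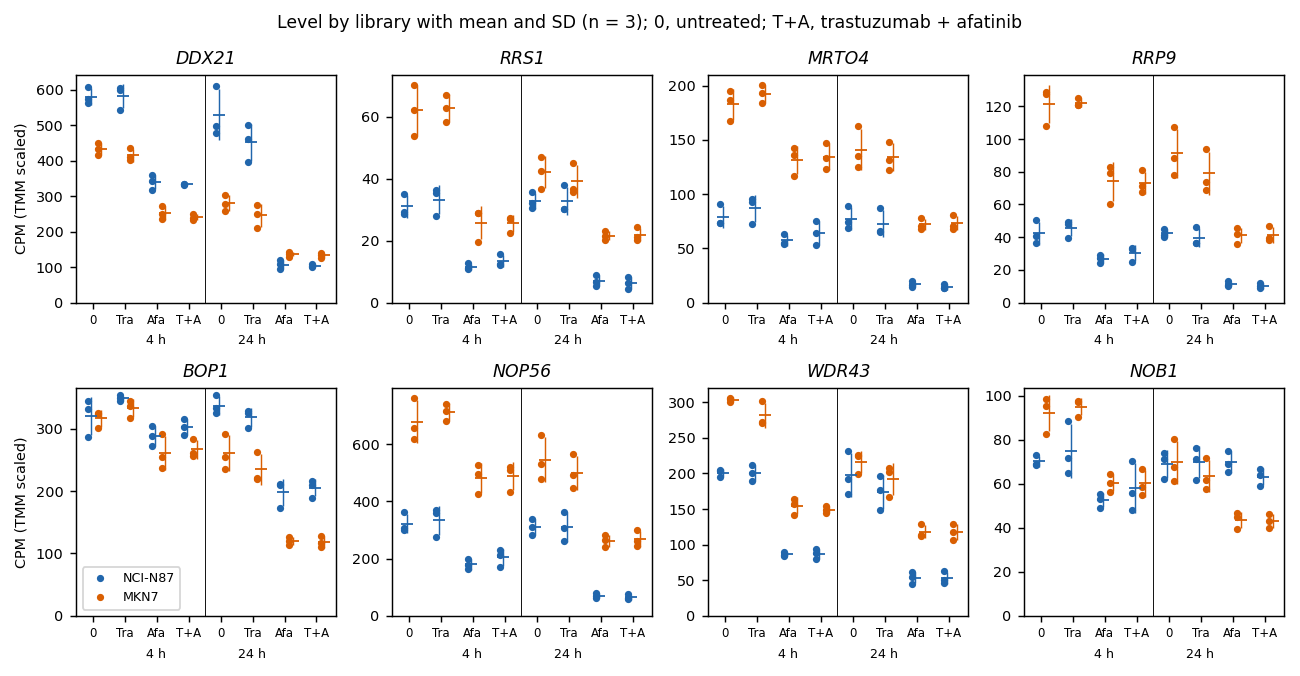
Level of 8 genes in CPM (vertical axis, from 0) in each NCI-N87 and MKN7 library by treatment at 4 h and 24 h (horizontal axis), with the mean and SD of 3 libraries. Levels were scaled within each line. In every panel but that of NOB1, the NCI-N87 afatinib libraries at 24 h lie below all untreated ones of that line.

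In MKN1 the largest fall at 24 h was that of MRTO4, from 115, 129.5 and 131 CPM untreated to 71.0, 94.0 and 59.8 CPM with afatinib, with no overlap and a log2 fold change of -0.74 (SE 0.14, adjusted p = 1.42e-04). At 4 h WDR43 had the largest fall, from 173, 165 and 168 CPM to 139, 131.9 and 126 CPM, a log2 fold change of -0.35 (SE 0.079, adjusted p = 0.00651) that no longer passed with any 1 replicate left out.

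The genes are next described by role in NCI-N87 at 24 h. The multifunctional nucleolar proteins NCL, NPM1, NOLC1 and DDX21 had a median log2 fold change of -1.97, although NPM1 alone was at -0.82. The box C/D core had a median of -1.81, the other large subunit assembly factors of -1.75 and the UtpA complex, which binds the precursor first, of -1.64. The late small subunit factors RRP12, BYSL, LTV1, NOB1 and TSR1 had a median of -1.59, with NOB1 apart.

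Smaller falls in NCI-N87 were those of the remaining processome factors with a median of -1.24, the UtpB complex with -1.22, the PeBoW complex with -1.12 and the nucleolar GTPases GNL2, GNL3 and GNL3L with -0.93. The smallest of the called falls was that of DDX52 at -0.49. In MKN7 the spread was narrower, from a median of -0.59 for the remaining processome factors to -0.96 for the multifunctional proteins, and DDX52 again had the smallest value at -0.32. The roles were not tested against each other.

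The early and the late response were then compared by testing the difference between the 24 h and the 4 h effect. In NCI-N87 the fall was larger at 24 h for 41 of the 46 genes, against 20.5% of all genes, with a median difference of -0.82. In MKN7 it was larger for 17 against 9.28%, with a median difference of -0.23, and in MKN1 for 5 against 1.43%, with a median difference of -0.29. None was smaller at 24 h by this test in these lines, but with the replicate number as a block NOB1 in NCI-N87 and RRS1 in MKN7 were, and with DESeq2 NOB1 was. The 17 of MKN7 became 7, 11 and 9 without replicates 1, 2 and 3. The 5 of MKN1 became 0, 10 and 0 without replicates 1, 2 and 3, and 21 with the replicate number as a block.

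By calls at each time, 34 genes of NCI-N87 were lower at both times, 11 at 24 h alone and NOB1 at 4 h alone. In MKN7 41 were lower at both times and 5 at 24 h alone, these being TBL3, FBL, NPM1, DDX52 and NOC4L. In MKN1 the numbers were 4 and 37. The share of all genes lower at both times was not counted. Several early genes of MKN7 had numerically larger falls at 4 h than at 24 h. RRS1 had log2 fold changes of -1.27 and -0.96, WDR3 of -1.09 and -0.94, and BYSL of -0.87 and -0.67, and none of these differences passed the test. With the replicate number as a block that of RRS1 did, at 0.32 (SE 0.12, adjusted p = 0.0491).

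At 4 h, UTP3, UTP6, WDR3 and WDR43 were lower in NCI-N87, MKN7 and MKN1, 31 genes were lower in 2 lines, 6 in 1 line and 5 in none. These 5 were DDX52, FBL, NOC4L, NPM1 and TBL3. Of the 4 genes lower in 3 lines, WDR43 belongs to UtpA, UTP6 and WDR3 to UtpB, and UTP3 is a processome factor outside both. Many other genes of the list are processome genes, among them DDX52, NOC4L and TBL3, which were lower in no line. Whether processome genes were lower early more often than the rest was not tested. The 4 rest on the MKN1 calls at 4 h, which changed with a replicate left out and with the block, as given above. At 24 h, 41 genes were lower in all of these 3 lines. FBL, GNL3L, IMP3 and NPM1 were lower in 2 of them and NOB1 in MKN7 alone. The shares of all genes lower in each line are given above, and the share lower in several lines at once was not counted.

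**Figure D3:**
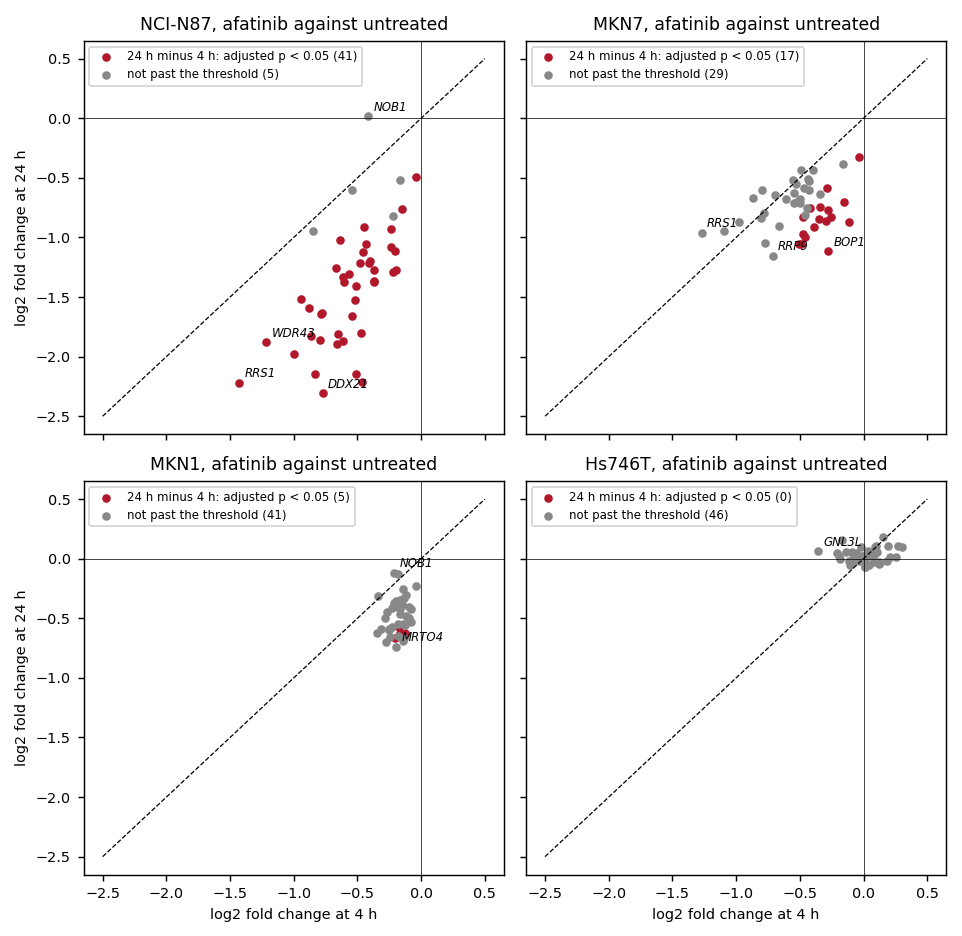
Log2 fold change of each of the 46 genes with afatinib at 4 h (horizontal axis) and at 24 h (vertical axis), 1 panel per line, with a dashed line where both are equal. Red points are genes whose 24 h effect differed from the 4 h effect at an adjusted p below 0.05. In NCI-N87 41 points are red and all but NOB1 lie below the line, while Hs746T has none in red and stays near 0.

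Levels in untreated cells also moved between the times in 2 lines. In MKN1, 43 of the 46 genes were lower at 24 h than at 4 h without any drug, against 16.4% of all genes, with a median log2 fold change of -0.56. In MKN7, 34 were lower against 9.43%, with a median of -0.34, and this count became 13 without replicate 1 and 15 without replicate 2. In NCI-N87 no gene was called lower, against 0.189% of all genes, and in Hs746T none, against 0.798%. With edgeR 1 and 2 genes of these lines had an unadjusted p below 0.05, and DESeq2 called none. Once replicate number was fitted as a block, Hs746T had 4 lower genes, GNL3, NCL, NOP58 and GNL2, and 2 higher ones, NAT10 and WDR3, and UTP20 was higher in NCI-N87, with all 7 values between -0.22 and 0.32. MRTO4 in MKN1 had 210.5, 232 and 197 CPM at 4 h and 115, 129.5 and 131 CPM at 24 h, without overlap.

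EGF raised most of the list in MKN1. At 4 h 3 genes were higher, UTP3, UTP6 and WDR43, against 4.37% of all genes, and the median log2 fold change over the 46 was 0.14, which became 0.03 with library size alone. At 24 h 45 were higher against 17.3%, with a median of 0.62. The remaining gene was GNL3L at 0.43 (SE 0.19, adjusted p = 0.0719). The 3 became 0, 1 and 1 without replicates 1, 2 and 3, and 10 with the replicate number as a block. With library size alone the median of all genes shifted by -0.20 at 24 h and that of the 46 was 0.42.

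The gene with the largest rise at 24 h was MRTO4. Its levels were 115, 129.5 and 131 CPM untreated and 224, 298 and 196 CPM with EGF, with no overlap, and the log2 fold change was 0.93 (SE 0.14, adjusted p = 2.63e-06). Replicate 2 was the highest of the EGF libraries. At 4 h the largest rise was that of UTP3 (ENSG00000132467, chr4:70688479-70690551), from 89.1, 92.8 and 90.0 CPM to 115, 120.4 and 112 CPM, a log2 fold change of 0.35 (SE 0.072, adjusted p = 9.87e-04) that did not pass without replicate 1.

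The EGF effect was larger at 24 h than at 4 h for 32 genes, against 4.61% of all genes, and this count became 1 without replicate 1 and 14 without replicate 2. It was measured against untreated cells that had themselves moved down. The EGF libraries of MRTO4 at 24 h, given above, covered the range of 210.5, 232 and 197 CPM seen in untreated cells at 4 h. Averaged over the 46 genes on the log2 scale, untreated MKN1 libraries at 24 h lay 0.44 to 0.62 below the untreated mean at 4 h, and EGF libraries at 24 h between 0.03 below and 0.19 above it.

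At 24 h cetuximab moved the list the other way in MKN1. At 4 h no gene was called lower, against 1.15% of all genes, with an unadjusted p below 0.05 for 10 genes in edgeR, 2 genes called by DESeq2 and 3 with the replicate number as a block. At the later time 33 were lower against 5.91%, with a median log2 fold change of -0.39. This count became 20 without replicate 1 and 2 without replicate 3. MRTO4 had the values 90.0, 76.9 and 73.7 CPM with cetuximab, all below the untreated ones given above, and a log2 fold change of -0.64 (SE 0.14, adjusted p = 0.00256). The 24 h effect was not called different from the 4 h effect for any gene, against 0.0202% of all genes, with an unadjusted p below 0.05 for 14, none called by DESeq2 and 8 with the replicate number as a block.

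EGF and cetuximab together gave a median level between those of EGF and untreated cells at 24 h. At 4 h no gene was higher than untreated, against 0.611% of all genes, with 2 at an unadjusted p below 0.05 in edgeR and none by DESeq2. At 24 h 42 were higher against 9.17%, with a median of 0.44, and 9 remained so called without replicate 1. MRTO4 had 208, 212 and 185 CPM with both. Against EGF alone no gene was called lower at 4 h, against 0.621% of all genes, or at 24 h, against 0.434%. The edgeR test gave 1 and 18 genes with an unadjusted p below 0.05, DESeq2 called 0 and 2, and the block 0 and 6. All 46 values were below 0 at 24 h, with a median of -0.17. These comparisons share their untreated or EGF libraries.

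Afatinib and cetuximab were compared directly in MKN1. Against cetuximab no gene was lower with afatinib at 4 h, against 0.0% of all genes, or at 24 h, against 0.0656%. The median log2 difference at 24 h was -0.13, with 39 of 46 values below 0 and 12 at an unadjusted p below 0.05 in edgeR, and DESeq2 called none.

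**Figure D4:**
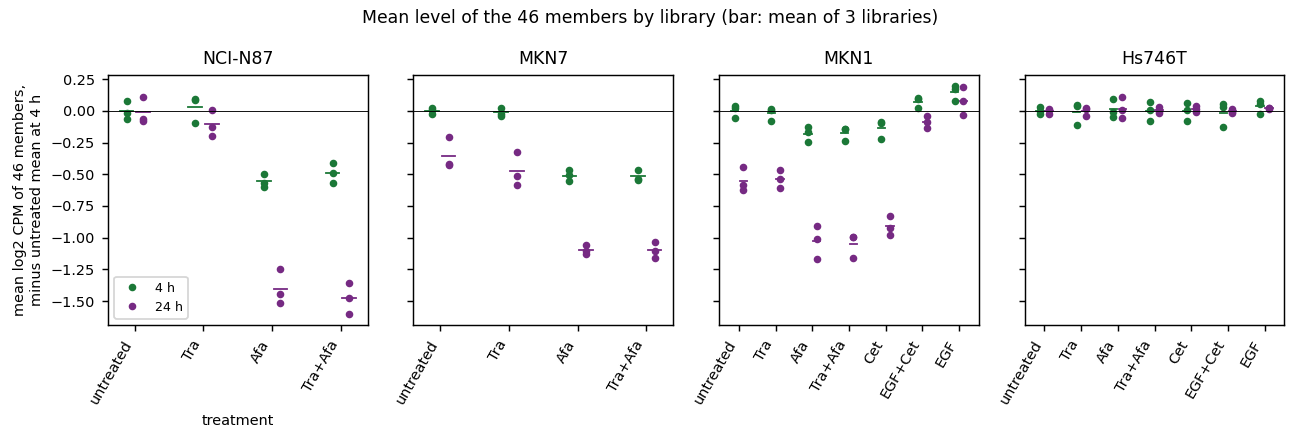
Mean log2 CPM of the 46 genes in each library minus the untreated mean of that line at 4 h (vertical axis) by treatment (horizontal axis), 1 panel per line, green at 4 h and purple at 24 h, with bars for means of 3 libraries. The 24 h afatinib libraries of NCI-N87 lie between -1.51 and -1.25, and those of Hs746T between -0.06 and 0.11.

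With trastuzumab no gene of the list was called, including in NCI-N87, the line with the highest ERBB2. In each of the 4 lines and at both times, 0 of the 46 genes were called in either direction, where 0.0% of all genes were called, with edgeR giving an unadjusted p below 0.05 for at most 6 genes and DESeq2 calling none. In NCI-N87 at 24 h the median log2 fold change was -0.08, and DDX21 had 396, 461 and 499 CPM, which overlapped the untreated range although each library lay below the untreated one of its number. In MKN7 at 24 h the median was -0.13, with 45 of 46 values below 0. There the mean log2 CPM of the 46 genes, relative to the untreated mean, was -0.23, -0.16 and 0.03 with trastuzumab and -0.07, -0.08 and 0.15 in untreated cells, so that the ranges overlapped and each treated library lay below the untreated one of its number. The block called no gene with trastuzumab in any line. Trastuzumab and afatinib together against untreated cells lowered 33 genes at 4 h, against 9.32%, and 45 at 24 h, against 32.0%, in NCI-N87. In MKN7 it lowered 40 (13.0% of all genes) and 46 (25.1%), and in MKN1 3 (2.59%) and 42 (14.1%). The 33 became 21 without replicate 2, and the 3 became 0, 1 and 0 without replicates 1, 2 and 3 and 17 with the replicate number as a block.

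Against afatinib alone, no gene of the list was called with the combination in any line at either time, where 0.0% of all genes were called, with an unadjusted p below 0.05 for at most 2 genes in edgeR and none called by DESeq2. The medians lay between -0.09 in NCI-N87 at 24 h and 0.07 in NCI-N87 at 4 h. The combination and afatinib alone were compared with the same untreated libraries.

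Hs746T, the line with high MET, showed no called difference in the list under any of its treatments. For afatinib, EGF, cetuximab and both combinations against untreated cells, at 4 h and at 24 h, 0 of the 46 genes were called in either direction, where 0.0% of all 18667 genes were called, and DESeq2 called none. The edgeR test gave an unadjusted p below 0.05 for 3 genes with afatinib at 4 h and for 0 in the other 9 comparisons. The median log2 fold change with afatinib was 0.01 at 4 h and 0.02 at 24 h, with signs that turned to -0.03 with library size alone at 4 h and to -0.02 without replicate 2 at 4 h and without replicate 3 at 24 h, and single genes at 24 h lay between -0.07 and 0.18. DDX21 had 652, 663 and 599 CPM untreated and 622, 649 and 577 CPM with afatinib at 24 h, which overlapped. MRTO4 had 152, 147 and 153 and 143, 146 and 181 CPM.

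The lines were compared with each other in 1 fit of the untreated and afatinib libraries of all 4, in which 21913 genes were tested. The 24 h afatinib effect differed between NCI-N87 and Hs746T for 45 genes against 37.1% of all genes, and between MKN7 and Hs746T for 44 against 19.4%. It differed between NCI-N87 and MKN1 for 38 against 29.5%, and between NCI-N87 and MKN7 for 33 against 22.7%. In the last of these 32 genes fell further in NCI-N87, led by DDX21 at -1.23, and NOB1 fell further in MKN7, with a difference of 0.72 (SE 0.15, adjusted p = 4.23e-04). BOP1 also fell further in MKN7 with DESeq2 and with the replicate number as a block.

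MKN7 and MKN1 differed for 7 genes against 7.57% of all genes, and MKN1 and Hs746T for 20 against 3.85%. The 7 were RRP9, BOP1, NOB1, PES1, DDX56, UTP4 and DDX10, all with a larger fall in MKN7. The 7 became 0, 0 and 2 without replicates 1, 2 and 3 and 24 with the replicate number as a block, and the 20 became 3 without replicate 2, 0 without replicate 3 and 43 with the block. The 44 of MKN7 against Hs746T became 29 without replicate 3.

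The other parts of the ribosome pathway were read from lists of related genes. Of 61 other tested ribosome biogenesis factors, 58 were lower with afatinib at 24 h in NCI-N87, 58 in MKN7 and 50 in MKN1, with medians of -1.14, -0.55 and -0.40. At 4 h the counts were 42, 45 and 5. Of all genes, 31.0%, 25.0% and 13.3% were lower at 24 h in these lines and 9.1%, 12.1% and 2.41% at 4 h. The values of LYAR, a nucleolar zinc finger protein, were -2.68, -1.42 and -0.97 at 24 h, and those of TCOF1, the treacle protein that aids polymerase I, were -2.51, -1.13 and -0.36. NOL6, a processome protein, was at -1.86, -0.66 and -0.47.

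RNA polymerase I and its factors moved in the same direction in part. Of 13 tested genes, 9 were lower at 24 h in NCI-N87, 10 in MKN7 and 6 in MKN1, against 31.0%, 25.0% and 13.3% of all genes. RRN3, also on this list, was listed at 0 in every library of the 4 lines and was not tested. POLR1B, the second largest subunit, had 98.2, 108 and 121 CPM untreated and 22.5, 26.8 and 26.0 CPM with afatinib in NCI-N87 at 24 h, and its log2 fold changes in NCI-N87, MKN7 and MKN1 were -2.12, -1.02 and -0.47. The polymerase subunits CD3EAP and POLR1E were at -2.27 and -1.88 in NCI-N87 and at -1.11 and -0.84 in MKN7.

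The genes for the proteins of the ribosome itself were hardly called with afatinib. By comparison, 31.0% of all genes were lower at 24 h in NCI-N87, 25.0% in MKN7 and 13.3% in MKN1. Of 44 large subunit protein genes found in the count files, 39 were tested. At 24 h 2 of these 39 were lower in NCI-N87, RPL5 at -0.46 and RPL35 at -0.56. In MKN7 1 was lower, RPL6 at -0.33, and in MKN1 1, RPL5 at -0.67. Of 28 small subunit protein genes found, 26 were tested. None of these 26 was lower in NCI-N87 or MKN1, and RPS26 was lower in MKN7 at -0.65. Their medians at 24 h lay between -0.13 and -0.01 in these 3 lines. None of these genes was called with EGF at either time or cetuximab at 24 h in MKN1 and Hs746T or with afatinib in Hs746T, but the medians were not all near 0. In MKN1 at 24 h they were 0.32 and 0.31 for the large and the small subunit with EGF and -0.30 for both with cetuximab, and in Hs746T at 4 h they were 0.48 and 0.49 with afatinib and 0.33 and 0.35 with EGF. With afatinib in NCI-N87, MKN7 and MKN1 their median SE was 0.15 to 0.24, against 0.08 to 0.11 for the 46 genes. A fall of the size seen in the 46 genes of MKN1 could therefore have been missed in them. In Hs746T with afatinib at 4 h their median SE was 0.29 for the large and 0.27 for the small subunit, against 0.11 for the 46 genes.

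MYC and the outputs of the MAPK pathway were measured in the same libraries. MYC in NCI-N87 had 386, 428 and 445 CPM untreated and 95.2, 91.8 and 104 CPM with afatinib at 4 h, and 333, 393 and 369 and 80.5, 83.1 and 112 CPM at 24 h. In MKN7 it had 536, 513 and 521 and 157, 147 and 129.8 CPM at 4 h. The groups were far apart, and the log2 fold change of MYC was -2.11 and -1.99 in NCI-N87, -1.86 and -1.44 in MKN7 and -1.81 and -1.34 in MKN1 at 4 h and 24 h. In Hs746T MYC had 181, 225 and 213 CPM untreated and 156, 197 and 199.8 CPM with afatinib at 24 h. The ranges overlapped, and the value with afatinib was the lower in each same-numbered pair, with a log2 fold change of -0.16 (SE 0.056, adjusted p = 0.514) with the replicate number as a block. The part of MYC in the fall of the 46 genes was not tested.

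Of 10 tested MAPK output genes, 10 were lower at both times in each of NCI-N87, MKN7 and MKN1, and 0 of 11 in Hs746T. Of all genes of NCI-N87, MKN7 and MKN1, 9.1%, 12.1% and 2.41% were lower at 4 h and 31.0%, 25.0% and 13.3% at 24 h. DUSP6, a phosphatase that is induced by ERK, had log2 fold changes at 4 h of -4.77 in NCI-N87, -4.01 in MKN7 and -3.36 in MKN1, and the ERK pathway inhibitor SPRY4 of -3.94, -5.21 and -3.76. In the MYC network, MXD4, a repressor that shares its partner with MYC, was higher at 24 h in NCI-N87 at 2.56 and in MKN7 at 0.45, and MGA was lower in NCI-N87 at -0.88. Of 11 tested network genes, 3 were lower and 3 higher at 24 h in NCI-N87, near the 31.0% and 31.5% of all genes that were.

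DNA replication genes were called lower with afatinib mostly at 24 h. At 4 h 1 of 30 was lower in NCI-N87, 0 of 30 in MKN7 and 0 of 31 in MKN1, while at 24 h 29, 29 and 23 were lower, with medians of -1.88, -0.67 and -0.34. The shares of all genes lower were 9.1%, 12.1% and 2.41% at 4 h and 31.0%, 25.0% and 13.3% at 24 h. CDC45, CDC6 and GINS2, which load and form the replicative helicase, had log2 fold changes of -3.06, -3.04 and -3.37 in NCI-N87 at 24 h. At 4 h their values there were -0.07, -0.33 and -0.26, of which CDC6 alone was called. The difference in timing between the lists was not tested.

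**Figure D5:**
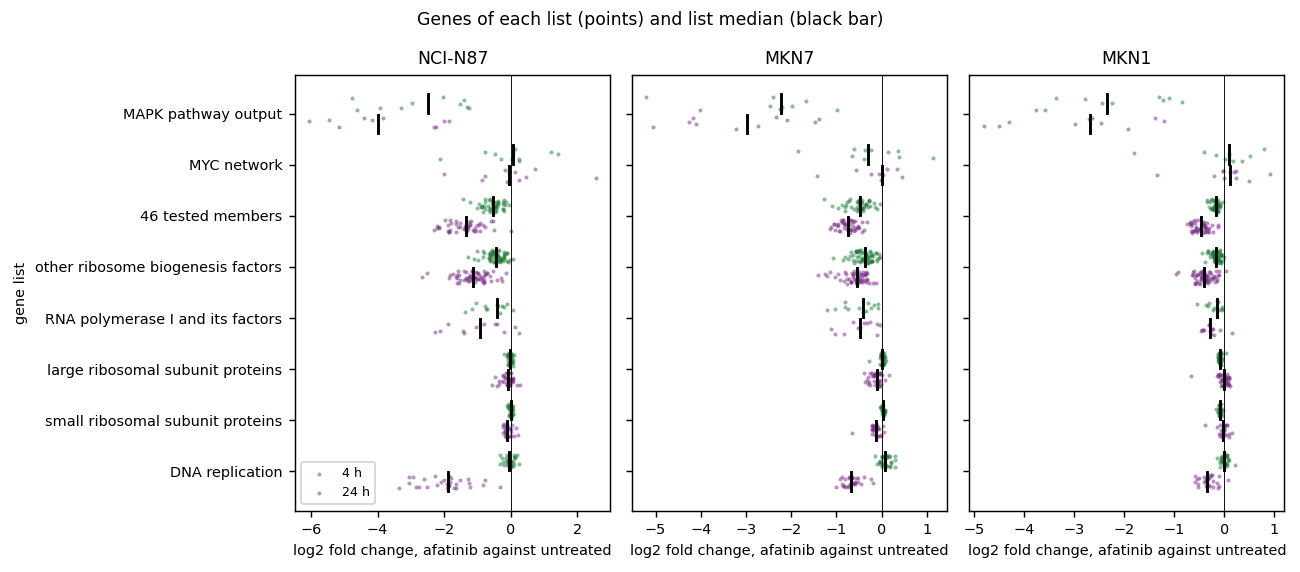
Log2 fold change with afatinib for each gene of 8 lists (points; green 4 h, purple 24 h) in NCI-N87, MKN7 and MKN1, with black bars for the list medians; the horizontal axes differ between panels. Ribosomal protein genes stay near 0 at both times, MAPK outputs are low at both times and DNA replication genes are low mostly at 24 h.

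Among genes of the list with both a promoter window and a test, the median log2 fold change at 24 h in NCI-N87 was -1.48 for the 18 with CACGTG and -1.21 for the 20 without it. In MKN7 the medians were -0.75 and -0.69. The ranges overlapped almost entirely, from -2.31 to -0.52 with the motif and from -2.15 to 0.02 without it in NCI-N87. NOP56, whose window shown above has no E-box, was at -2.15, and MRTO4, whose window has one, at -2.21.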

How the data were processed

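The authors deposited, per library, raw read counts per Ensembl gene, from paired reads of polyA-selected, directional libraries. The submitters' notes name Trim Galore, STAR and hg38, and the counting tool and annotation are not given in the sources used here. The counts were used as deposited, with symbols from GENCODE 29, in which 8404 of 65217 identifiers (0.0422% of counts) had no match. Each line was fitted on its own with edgeR 4.0.16 in R 4.3.3, all libraries together with 1 mean per condition, TMM scaling, filterByExpr (minimum count 10, minimum total 15), glmQLFit and glmQLFTest, and Benjamini-Hochberg adjustment over all tested genes. Lines were compared in 1 fit of the untreated and afatinib libraries. The scripts were tested on simulated counts.

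CPM use TMM within a line, and library size alone between lines. No 2 replicates of a group had identical counts. Labels call the replicates biological. The main fits did not pair the samples, so the calls are unpaired unless the block is named. Pairing by replicate number was fitted as an alternative, the block. The deviations of same-numbered treated and untreated libraries correlated at 0.104 or more in every line and time. The count data limit precision through depth and 3 replicates. Alternatives were DESeq2 1.42.0, only the compared groups, library size alone, no filter, the replicate number as a block and each replicate left out. Members and lists were chosen with earlier results of these data known. Genes given by library are the 3 largest falls at 24 h with afatinib in NCI-N87 and MKN7, the largest change in the other afatinib and EGF comparisons, genes at 0, genes called at 4 h in most lines and genes that differ between lines. From the other lists, MYC, DUSP6, SPRY4 and up to 3 genes with the largest called change are named.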

Additional observations from a re-analysis of the deposited data

Results flagged for a closer look

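The afatinib effect at 24 h differed between lines by a test of the difference itself. The number of the 46 genes called was 33 between NCI-N87 and MKN7 (22.7% of all genes), 38 between NCI-N87 and MKN1 (29.5%), 45 between NCI-N87 and Hs746T (37.1%), 7 between MKN7 and MKN1 (7.57%), 44 between MKN7 and Hs746T (19.4%) and 20 between MKN1 and Hs746T (3.85%). The 7 became 0 without replicate 1 or 2, and the 20 became 0 without replicate 3.

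The effect also differed between 24 h and 4 h. With afatinib this held for 41 genes in NCI-N87 (20.5% of all genes), 17 in MKN7 (9.28%) and 5 in MKN1 (1.43%), all with a larger fall at 24 h. With EGF in MKN1 it held for 32 genes (4.61% of all genes), all with a larger rise at 24 h. The counts of MKN7, MKN1 and EGF changed with a replicate left out, as given below.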

How the results depend on the processing

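Of 12 called changes checked, the largest of their afatinib and EGF comparisons, none reversed under any alternative run. Some of them no longer passed the threshold under an alternative. Medians near 0, such as those of Hs746T, changed sign under some runs. The counts of lower genes with afatinib in MKN1 at 4 h (4) were 0 with only the compared groups, 8 with DESeq2, 1 with library size alone, 2 with no filter and 19 with the replicate block, and 0 to 1 with a replicate left out. With trastuzumab and afatinib (3) they were 0, 8 and 1 under the first 3 of these, 17 with the block and 0 to 1 with a replicate left out. In MKN1 the EGF count at 4 h (3) was 1 with library size alone, 10 with the block and 0 to 1 with a replicate left out. Cetuximab at 4 h (0) gave 2 with DESeq2 and 3 with the block, and at 24 h (33) 19 with only the compared groups and 2 to 35 with a replicate left out.

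In MKN1, EGF with cetuximab against EGF at 24 h (0) gave 2 with DESeq2 and 6 with the block. The afatinib difference between the times (5) gave 0 with only the compared groups, 8 with DESeq2, 11 with library size alone, 1 with no filter, 21 with the block and 0 to 10 with a replicate left out. That of EGF (32) gave 21 with only the compared groups and 1 to 28 with a replicate left out, and that of cetuximab (0) gave 8 with the block. In MKN7, the genes past a log2 fold change of -1 at 24 h (5) were 1 with library size alone, and untreated cells between the times (34) gave 13 with only the compared groups and 22 with no filter. Untreated Hs746T cells gave 4 lower and 2 higher genes with the block and untreated NCI-N87 cells 1 higher, where none was called before.

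Between lines at 24 h, MKN7 against MKN1 (7) gave 1 with only the compared groups, 11 with DESeq2, 3 with no filter and 24 with the block, and MKN1 against Hs746T (20) gave 0 with only the compared groups and 43 with the block. With 1 replicate left out the ranges were 24 to 44 for afatinib (41) and 9 to 42 for EGF with cetuximab (42) in MKN1 at 24 h, 4 to 8 past the log2 limit (5), 7 to 11 for the difference between the times (17) and 13 to 37 for untreated cells (34) in MKN7, 22 to 33 for afatinib (35) and 21 to 30 for trastuzumab and afatinib (33) in NCI-N87 at 4 h, and 0 to 2 for MKN7 against MKN1 (7), 29 to 42 for MKN7 against Hs746T (44) and 0 to 14 for MKN1 against Hs746T (20). The cause was not tested. With the block 1 gene each of NCI-N87 and MKN7 had a smaller fall at 24 h, and 2 in place of 1 fell further in MKN7 than in NCI-N87. The block changed no other count given in the text by over 1.5 times.

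Against the median over the 46 genes, library size alone moved the 24 h afatinib value from -1.35 to -1.09 in NCI-N87 and from -0.75 to -0.63 in MKN7, and the MKN1 values at 4 h from -0.17 to -0.08 with afatinib, from 0.14 to 0.03 with EGF and from -0.12 to -0.05 with cetuximab. The EGF and cetuximab medians were added after the data had been seen. With 3 replicates, small differences such as those of MKN1 at 4 h are near the limit of these tests.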
